A study of Mus musculus with 6 samples.

Results

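miR-21 was measured by real-time PCR in osteoclasts, the bone-resorbing cells of the monocyte lineage, and is 1 of 104 miRNAs that gave a threshold cycle (Ct) in all 6 samples. It was taken as the assay so named in the deposited ΔCt table, together with the same well in the table of raw Ct, and it was singled out for its values in the comparison described here. Its values are therefore a description, and no test is given for it. The mice had undergone transection of the anterior cruciate ligament (ACLT), which destabilises the knee, or a Sham operation, and marrow cells that carried OSCAR and CTR were collected by magnetic sorting 2 weeks later. There were 3 ACLT samples and 3 Sham samples. The labels used here give no strain, sex or age. The series text speaks of RNA from 3 mice per group being pooled, and whether a sample is a mouse or a repeat of a pool was not stated, so the spread between samples may be technical. In cells measured in bulk, fewer cells of a type and less RNA per cell cannot be told apart.

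miR-21 is cut from the stem of a hairpin transcript and guides repressor complexes to mRNAs that match its seed, bases 2 to 8. In mouse osteoclast precursors it is known to be induced through c-Fos after RANKL and to repress Pdcd4, itself a brake on c-Fos, and in many tissues it rises with inflammation and injury. No mRNA was measured in this series, so nothing can be said here about its targets.

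The assay sequence is shown beside those of the other arm of the hairpin and of the only other assay with the same seed, because these would share a precursor or targets with miR-21. Seeds are in capitals, and the letters are those of the deposited table.
miR-21: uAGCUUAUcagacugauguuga
miR-21*: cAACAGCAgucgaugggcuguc
miR-590-5p: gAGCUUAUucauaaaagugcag
Neither miR-21* nor miR-590-5p gave a Ct in any sample, so miR-21 alone represented both its hairpin and its seed. In RefSeq (GRCm38.p6) the assay sequence equals mmu-miR-21a-5p at chr11:86584120-86584141 on the minus strand, and miR-21* equals mmu-miR-21a-3p at chr11:86584082-86584103. Both lie in the 92-base hairpin of the gene Mir21a at chr11:86584067-86584158, printed here with the 2 arms in capitals.
Mir21a hairpin: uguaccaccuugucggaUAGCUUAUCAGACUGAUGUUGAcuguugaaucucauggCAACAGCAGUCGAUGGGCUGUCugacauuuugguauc
The hairpin falls inside the span of Vmp1, a protein-coding gene on the same strand, 209 bases from its downstream end. The tables used here do not say whether that is exon or intron.

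The nearest sequence among the assays with a Ct was that of miR-144, an erythroid miRNA, which needs 8 single-base edits to become that of miR-21. It stood far from miR-21 in signal, with a mean Ct of 30.0 in ACLT and 29.4 in Sham. miR-21b of RefSeq, 5 edits away, was not analysed here.

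Before the results, a property of the table has to be given. In the ACLT group the Ct of sample 3 equalled that of sample 2 multiplied or divided by a fixed factor, within 0.002 cycles, in 77 of 110 wells, and in the Sham group likewise in 82 of 110. The other 13 pairs of samples shared a factor in 2 to 4 wells. The wells of miR-21 were off the factor in both groups, as were those of 15 other miRNAs. Its 3 values per group are thus not tied in this way. It was, however, among 6 of the 110 wells whose mean Sham Ct lay within 0.0005 cycles of a multiple of 0.1. Whether its Sham values are bound in some other way was not tested. For the 71 miRNAs on the factor in both groups the third value depends on the second. Comparisons of miR-21 with such miRNAs rest on fewer separate values than samples.

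miR-21 came up about 4 cycles earlier in ACLT samples. Its raw Ct was 19.7, 20.3 and 21.2 in the ACLT samples, against 24.1, 25.1 and 25.2 in the Sham samples. The highest ACLT Ct lay 2.89 cycles under the lowest Sham Ct, so the groups did not overlap before any normalization. The means were 20.4 ± 0.77 cycles in ACLT and 24.8 ± 0.59 cycles in Sham (SD, n = 3 each), a difference of -4.39 cycles.

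U6, the small nuclear RNA used by the authors as the normalizer, is the first of 3 reference assays on each plate. On the plate of miR-21 its Ct was 25.9, 26.1 and 26.9 in ACLT and 25.3, 26.9 and 26.5 in Sham, a mean difference of 0.08 cycles with overlapping groups. Relative to U6 the level of miR-21, minus ΔCt on a log2 scale where higher is more RNA, was 6.22, 5.84 and 5.64 in ACLT, against 1.22, 1.79 and 1.29 in Sham. Every ACLT level was at least 3.84 log2 units above every Sham level, and the 9 differences between an ACLT and a Sham sample ran up to 5.00. The mean level was 5.90 ± 0.30 in ACLT and 1.43 ± 0.31 in Sham, a difference of 4.47. At full amplification efficiency this is 22.1-fold, the value that the authors' deposited table also gives, and there it is the highest of 103 ratios, ahead of 10.8 for miR-214.

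For miR-21, normalization to U6 brought the samples of a group closer together. Over all miRNAs it did not. The median SD in ACLT was 0.52 for raw Ct and 0.57 for the level, and in Sham 0.44 and 0.75. The SD of miR-21 in ACLT was 0.77 for raw Ct and 0.30 for the level, and in Sham it was 0.59 and 0.31. The raw Ct of miR-21 was among the more variable (the 87th smallest SD of 104 in ACLT and the 72nd in Sham), while its level relative to U6 was among the steadier (the 14th of 103 in ACLT and the 8th in Sham).

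**Figure D1:**
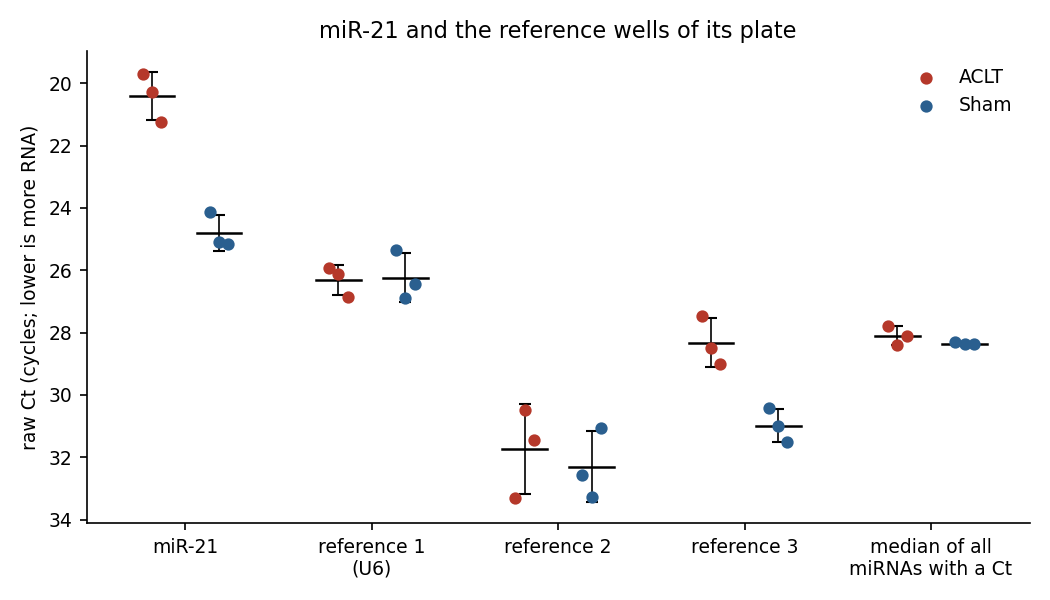
Raw Ct (cycles, axis reversed so that more RNA is higher) of miR-21, of the 3 reference wells of its plate and the median Ct of all 104 miRNAs, in 3 ACLT and 3 Sham samples; points are samples, bars the mean and whiskers the SD. The groups are apart for miR-21 and, by less, for reference 3, and overlap for U6, reference 2 and the median.

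The size of the difference depended on the normalizer, and its direction did not among those tried. Reference 2, an unnamed assay, had a Ct of 33.3, 30.5 and 31.4 in ACLT and 32.6, 33.3 and 31.1 in Sham. Relative to it the level of miR-21 was 13.6, 10.2 and 10.2 in ACLT, against 8.45, 8.15 and 5.89 in Sham. The groups stayed apart by 1.73 log2 units, but the SDs rose to 1.96 and 1.40, and the mean difference was 3.82.

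Reference 3, also unnamed, itself came up earlier in ACLT. Its Ct was 27.5, 28.5 and 29.0 in ACLT and 30.4, 31.0 and 31.5 in Sham, with no overlap, and a like difference of -2.87 cycles was seen on the other plate. Relative to it the level of miR-21 was 7.75, 8.21 and 7.78 in ACLT, against 6.31, 5.90 and 6.33 in Sham. The difference was then 1.73, or 3.32-fold, with the groups 1.42 apart and the smallest SDs of the 3 references, 0.25 in ACLT and 0.24 in Sham. Which of the 3 references was steady between the groups was not tested. Relative to their mean the difference was 3.34, and relative to the median miRNA of each sample it was 4.13.

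Each of the 103 other miRNAs was also used in turn as the normalizer, a choice made after seeing the data. miR-21 was higher on average in ACLT against all 103, and its ACLT and Sham values did not overlap against 102 of them. The exception was miR-30d, with a mean difference of 1.54. The differences ran between 1.03 (against miR-214) and 6.48 (against miR-185), with a median of 4.27. The direction against all 103 follows from miR-21 having the largest difference in the table and adds nothing to it; the range describes the size alone.

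**Figure D2:**
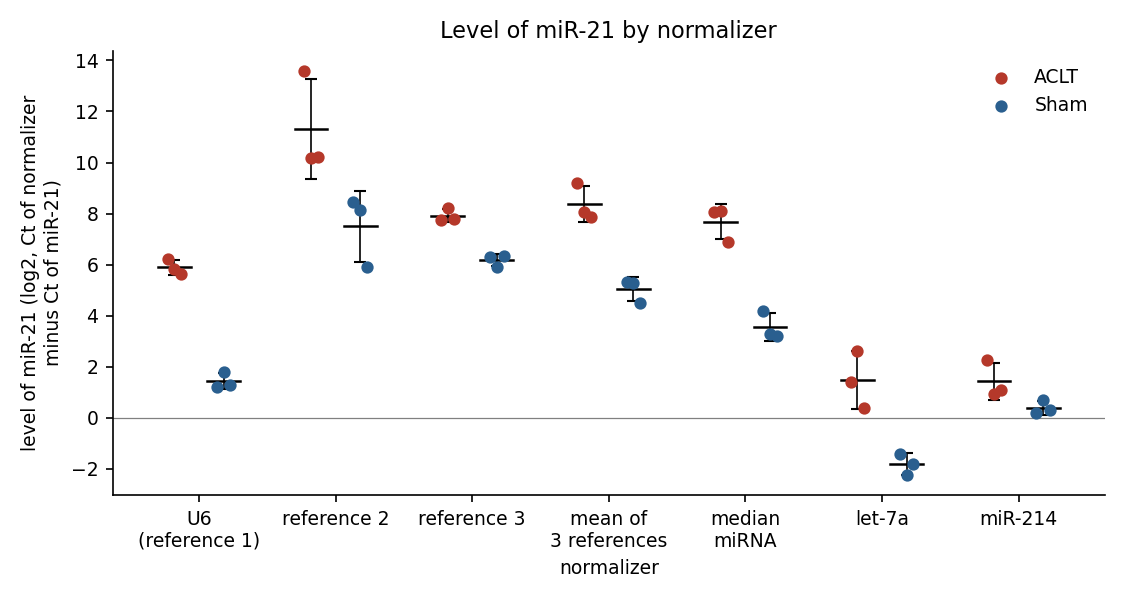
Level of miR-21 (log2, Ct of the normalizer minus Ct of miR-21) in 3 ACLT and 3 Sham samples for 7 normalizers; points are samples, bars the mean and whiskers the SD. ACLT lies above Sham for each, by 4.47 with U6, 1.73 with reference 3 and 1.03 with miR-214.

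In the order of levels miR-21 was first in ACLT and 12th in Sham. By raw Ct it held place 1 of 104 in each of the 3 ACLT samples, and places 13, 13 and 14 in the Sham samples. Assays of different miRNAs need not amplify equally well, so such places describe signal and not copy number.

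In ACLT the nearest neighbours by mean Ct were miR-214 (21.8 ± 0.58) and let-7a (21.9 ± 0.93), and only these 2 had a Ct range that overlapped that of miR-21. miR-214 is known to favour osteoclast formation, and let-7a belongs to a family that restrains proliferation. In every ACLT sample both were nonetheless later than miR-21, miR-214 by 0.92 to 2.27 cycles and let-7a by 0.38 to 2.63 cycles. The other 101 miRNAs lay wholly above the range of miR-21. miR-148a, which also favours osteoclast formation, was the first of them, at 22.6 ± 0.99.

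In Sham, the 11 miRNAs ahead of miR-21 by mean Ct were ahead in each Sham sample and were led by miR-338-5p (22.9 ± 0.25), let-7a (23.0 ± 0.34) and let-7c (23.1 ± 0.28). The Ct ranges of 9 of them lay wholly below that of miR-21, while those of let-7b and miR-191 touched it. Behind it, miR-30b (25.0 ± 0.06), miR-214 (25.2 ± 0.79) and miR-200c (25.3 ± 0.87) overlapped it and were not separated from it. Against let-7a, the leader of 2 of the 3 Sham samples, the level of miR-21 was 1.42, 2.63 and 0.38 in ACLT and -1.40, -2.24 and -1.80 in Sham, so the order of the pair was opposite in the groups.

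Expressed as a share of the summed signal of all 104 miRNAs (2 to the power of minus Ct), miR-21 made up 23.5%, 22.3% and 12.1% in ACLT, against 2.79%, 1.91% and 1.68% in Sham. The third ACLT sample was the lowest of its group and still 9.31 percentage points above the highest Sham sample. In that sample let-7c, at 10.8%, came close to miR-21, while in the first the runner-up let-7a had 8.80% and in the second miR-214 had 11.8%. The share assumes equal amplification of all assays and is not a count of molecules.

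Among the differences of all 100 miRNAs tested (those with a raw Ct under 35 throughout ACLT, throughout Sham or in both), that of miR-21 was the highest, 1.03 above miR-214 at 3.44. The median of the 100 was 0.24, and 59 were above 0. limma's adjusted p, with Benjamini-Hochberg adjustment, passed 0.05 for 20.0% of the 100, of which 13 were higher in ACLT (13.0%) and 7 lower (7.0%). The ACLT levels of 18 miRNAs lay wholly above the Sham levels (18.0%) and those of 8 wholly below (8.0%). The fit ran over the whole table, so miR-21 is counted in these numbers, and nothing is read from that, since it was chosen on this comparison. All 7 lower calls were on the factor in Sham, and all but miR-99b* in ACLT as well. For these, limma took tied values as separate samples. It also moderates the spread of each miRNA by that of all tested miRNAs, so tied wells entered the adjusted p of the higher calls as well. The standard error was 0.582 for miR-214, with SDs of 0.48 in ACLT and 0.05 in Sham. That of miR-152 was 0.593, with SDs of 0.62 and 1.53. The part of the tie in the higher calls was not tested. The lower calls depended on each sample. With ACLT sample 1 left out there was 1, with sample 2 left out 0 and with sample 3 left out 3. Omitting Sham sample 1 gave 16, and omitting sample 2 or 3 gave 1. The higher calls then numbered 11 to 14. With the replicate number as a block 13 were higher and 1 lower. Averaging samples 2 and 3 of each group left 11 higher and 0 lower. The split depended on the scaling: 1 was higher and 87 lower with reference 3, 6 and 34 with the mean of the 3 references, 13 and 19 when the median miRNA was the normalizer, 12 and 14 with quantile-normalized Ct, and none in either direction with reference 2, where 2 had an unadjusted p under 0.05 in limma.

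miR-21 stood at the edge of a set that is set apart in the table in another way. The 16 miRNAs off the factor in both groups were all on the plate of miR-21 and held 16 consecutive places in the Sham order, 12 to 27, with mean Sham Ct between 24.8 for miR-21 and 26.2 for miR-29c. The miRNA just before them, miR-191, was at 23.9. All 16 had a higher mean level in ACLT, by 0.90 for miR-29c to 4.47 for miR-21 with a median of 2.34. The 84 other miRNAs tested had a median of 0.03. All 13 miRNAs past the threshold as higher belonged to the 16. The part of this tie in the difference of miR-21 was not tested. Relative to the median of the 71 miRNAs on the factor, a normalizer also chosen after seeing the data, the difference of miR-21 was 4.58.

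**Figure D3:**
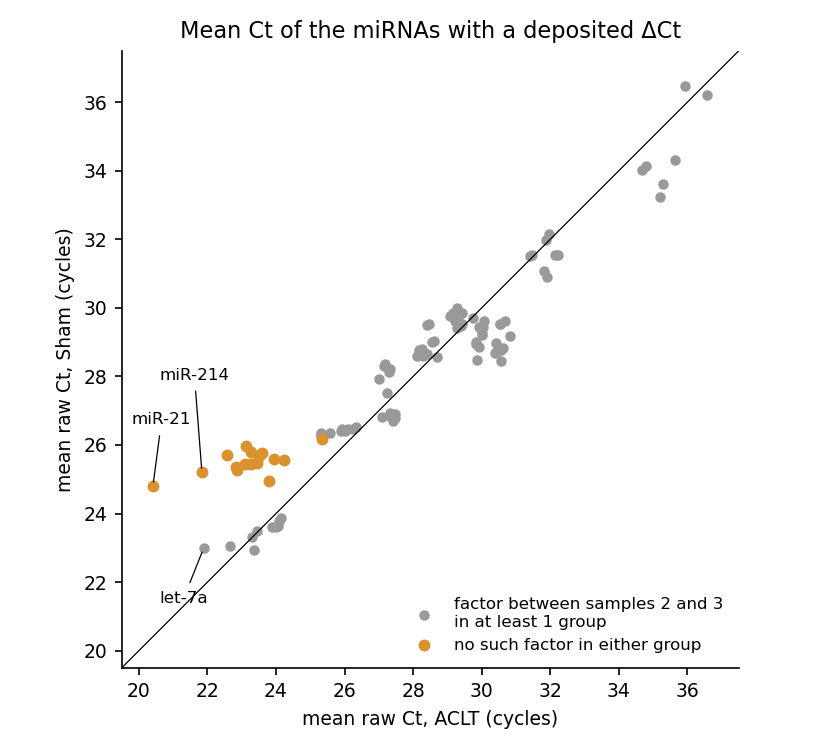
Mean raw Ct in ACLT (x axis) and in Sham (y axis), in cycles, for the 103 miRNAs with a deposited ΔCt; the line marks equal values, and points above it have a lower Ct in ACLT. The 16 miRNAs without a fixed factor between samples 2 and 3 in either group form a band between 24.8 and 26.2 cycles in Sham, with miR-21 at its left end at 20.4 cycles in ACLT.

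The miRNAs whose level relative to U6 was most like that of miR-21 over the 6 samples were miR-214 (Pearson r = 0.97), miR-148a (0.97), miR-200c (0.97), miR-30c (0.95) and miR-30a (0.94). These values are descriptions: the 6 samples share a normalizer well each and fall into 2 groups, so a high r mostly records a difference between the groups. miR-214 had levels of 3.96, 4.92 and 4.53 in ACLT and of 1.03, 1.08 and 0.99 in Sham. miR-148a had 4.09, 3.94 and 3.16 in ACLT and 1.04, 0.45 and 0.09 in Sham. miR-21 was above miR-214 by 2.27, 0.92 and 1.11 in ACLT and by 0.19, 0.71 and 0.30 in Sham. The mean gap to miR-148a was 2.17 in ACLT (SD 0.29) and 0.91 in Sham (SD 0.64). Every ACLT gap was larger than every Sham gap, by at least 0.21 for miR-214 and 0.55 for miR-148a. With raw Ct centred on the median miRNA, the order was miR-30a (0.97), miR-214 (0.96), miR-200b (0.95), miR-148a (0.95) and miR-200c (0.95), so 4 of the 5 names were shared. All 6 names are among the 16 miRNAs above. The lowest r belonged to miR-185 (-0.90) relative to U6 and to miR-320 (-0.97) with centred Ct. miR-185 had levels of -4.03, -4.57 and -4.14 in ACLT and of -2.96, -1.95 and -1.78 in Sham.

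The seeds of miR-214 and miR-148a, shown with that of let-7a because these were the nearest in level or pattern, differ from that of miR-21 and from each other.
miR-214: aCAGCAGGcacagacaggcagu
miR-148a: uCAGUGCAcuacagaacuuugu
let-7a: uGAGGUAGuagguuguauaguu

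**Figure D4:**
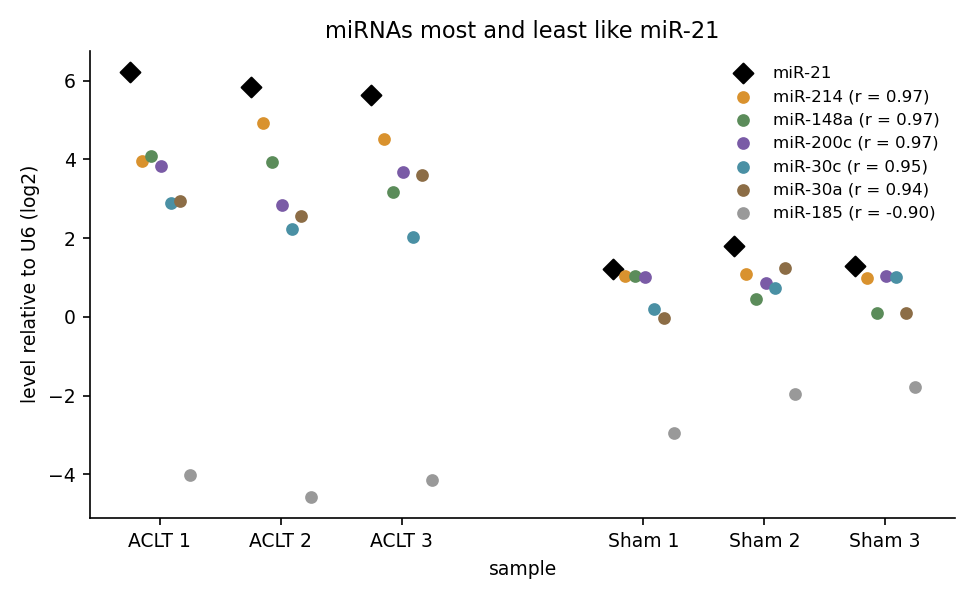
Level relative to U6 (log2) in each ACLT and Sham sample for miR-21 (diamonds) and for the 5 miRNAs with the highest and the 1 with the lowest Pearson r to it. In ACLT miR-21 is above each of the 5 by 0.92 or more, and in Sham it is above each by at most 1.35.

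Other miRNAs with a known place in osteoclasts or inflammation were set beside miR-21. Of 10 described as favouring osteoclasts, 8 were tested. Leaving miR-21 aside, 4 of the other 7 rose and 0 fell, beside 13.0% higher and 7.0% lower of all 100. The median difference of the 7 was 2.25, against 0.24 for all 100 tested. miR-29a, at 2.25, was among those that rose, and miR-29b stood at 1.41 (limma adjusted p = 0.11). All of the 7 except miR-183 were off the factor in both groups. Of the 16 miRNAs off it, 13 passed as higher, against 0 of the 84 others tested. miR-183 was on the factor in both groups and did not pass, with a difference of 1.11 (limma adjusted p = 0.267). The part of the tie in the rise of this list was not tested. miR-31 and miR-223 of this list gave no Ct. Of 8 described as restraining osteoclasts 3 were tested and 0 passed limma in either direction (0 at an unadjusted p under 0.05), with differences between -0.94 and 1.04. Of 6 tied to NF-kB and inflammation, 3 were tested. Of those other than miR-21, 0 of 2 passed limma (0 at an unadjusted p under 0.05). miR-146a, a feedback inhibitor of that pathway, had a difference of 1.04 (adjusted p = 0.296) and miR-146b one of -0.40. miR-155, miR-9 and miR-132 gave no Ct. Of 12 miRNAs that, like miR-21, are abundant in many cell types, 11 were tested and 0 passed limma (1 at an unadjusted p under 0.05). Their median difference was 0.18, and miR-16 of this list gave no Ct.

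miRNAs that mark cell types were compared with the label of the sort. Of 8 myeloid miRNAs, 5 gave a Ct and 0 passed limma (0 at an unadjusted p under 0.05). miR-223, miR-142-3p and miR-155, which cells of this lineage carry, had none in any sample, while miR-142-5p had a mean Ct of 26.3 in ACLT and 26.5 in Sham. The log2 of their summed level relative to U6 was 2.66 to 4.33 in ACLT and 1.94 to 3.75 in Sham. Of 6 miRNAs of stroma and vessel wall 5 were tested and 3 rose, beside 13.0% of all 100. Those 3 (miR-145, miR-199a-3p and miR-214) were off the factor in both groups. miR-199a-3p and miR-214 are also on the list of miRNAs favouring osteoclasts. The other 2, on the factor in both groups, did not pass, with differences of -0.67 for miR-143 and -0.76 for miR-152. The log2 summed level of the 5 was 5.23 to 5.69 in ACLT and 2.30 to 2.84 in Sham, without overlap. Levels were summed on a linear scale, so this sum came mostly from the 3 that rose. miR-143 and miR-152 had mean levels of only -3.7 and -3.5 in ACLT. miR-199a-5p gave no Ct. Of 7 epithelial miRNAs 4 were tested. Of these, 2 rose (miR-200b and miR-200c) and 2 fell (miR-203 and miR-205), beside 13.0% higher and 7.0% lower of all 100. The 2 that rose were off the factor in both groups, and the 2 that fell were on it in both. The part of the tie in these stromal and epithelial differences was not tested. Of the 6 fits that leave out a sample, miR-203 passed in 1 and miR-205 in 2, and neither passed with the replicate block, whereas miR-200b and miR-200c passed in all 6 and with the block. The log2 summed level of the 4 was 3.69 to 4.51 in ACLT and 1.60 to 2.19 in Sham. It likewise came mostly from the 2 that rose, since miR-203 and miR-205 had mean ACLT levels of -4.5 and -4.1. miR-200a had a Ct in every sample but no deposited ΔCt, and its level relative to U6 was 3.16, 2.17 and 2.35 in ACLT and 2.37, 3.32 and 2.35 in Sham. With it added, a sum computed after seeing the data, the range was 4.12 to 4.89 in ACLT and 3.03 to 3.82 in Sham, and the difference of the means was 1.23 with miR-200a and 2.25 without it. miR-141 and miR-429 gave no Ct. The part of the stromal and epithelial miRNAs in the difference of miR-21 was not tested. Of 3 erythroid, 3 lymphoid, 1 endothelial and 1 muscle miRNA tested, 0 passed limma (1 at an unadjusted p under 0.05), with differences between -1.32 for miR-181a and 1.21 for miR-451.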

How the data were processed

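miRNAs were measured in 3 ACLT and 3 Sham samples, grouped by their titles. Per the labels' protocols, Trizol-extracted RNA was copied into cDNA (QuantiMir) and run for 40 cycles on a ViiA7 with SYBR Green. The deposited tables hold raw Ct in cycles, ΔCt on a log2 scale, and a linear ratio of ACLT to Sham. ΔCt equals raw Ct minus the first reference well of the plate, within 1.8e-15 cycles, and the ratio equals 2 to the power of minus ΔΔCt. The headers of the deposited ratio table name U6. How threshold and baseline were set is not stated in those sources. Of 707 named assays 104 gave a Ct in every sample and 603 in no sample; 103 of the 104 had a ΔCt. 2 wells appear on 2 lines, of which the filled line was kept; 2 ΔCt lines were not analysed here.

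miR-21, the miRNA lists and the alternatives were chosen with earlier results of these data known. The miRNAs named are miR-21, assays of its seed and hairpin, the 5 lowest mean Ct per group, the 5 highest r on each scale, the largest differences, members of the lists and the references; other names were chosen after their values were seen. ACLT and Sham were compared over all tested miRNAs with limma 3.58.1 in R 4.3.3 (lmFit, eBayes with a trend, two-sided, Benjamini-Hochberg). The fit was tested on simulated data whose samples were drawn independently, without the tie between samples 2 and 3. That test cannot show how the tie affects the calls. limma takes the wells of a sample as unrelated, though cells, cDNA and normalizer are common to them. A qPCR array has no read depth, and the number of samples limits the precision. Python 3.11.15 was used for the rest, with pandas 2.3.3, numpy 2.4.6 and matplotlib 3.10.9.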

Additional observations from a re-analysis of the deposited data

How the results depend on the processing

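The log2 difference of miR-21 was 3.82 with reference 2, 1.73 when reference 3 was used, 3.34 for the references' mean, 4.13 relative to the median miRNA, 2.51 after quantile normalization, and 1.03 to 6.48 with each other miRNA as normalizer. Quantile normalization gives the first place of each sample the same value, which fixes the ACLT level of miR-21. The difference was 4.30 to 4.65 when leaving out each sample, 4.60 with samples 2 and 3 averaged, 4.52 with samples 1 and 2 only and 4.39 on raw Ct. miR-21 had the highest difference of all tested miRNAs under each of the 18 alternatives tried for its rank. For normalizers shared by the wells of a plate, raw Ct and the replicate block, this follows largely from their construction. So it does for the direction against each other miRNA and for the stricter Ct limits, which only remove miRNAs. The 22.1-fold difference was 17.6-fold at 1.9 and 13.8-fold at 1.8 per cycle. In Sham miR-21 was 11th by level relative to U6, since miR-200a has no ΔCt.

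The count of 20 miRNAs past the limma threshold was 0 with reference 2, 88 when reference 3 was used, 40 for the references' mean, 32 relative to the median miRNA, 11 with samples 2 and 3 averaged, and 3 with samples 1 and 2 only. Leaving out a sample gave 13 to 30, the lower value without ACLT sample 1 or 2 or Sham sample 2 or 3. Fewer samples enter the averaged and reduced settings; for the other settings the cause was not tested. With the replicate number as a block 14 passed. Deviations from the group means of same-numbered samples correlated at 0.245, 0.056 and 0.066, so the numbers were not taken as pairs. The block cannot change the difference of miR-21, 4.47, since each number occurs once in each group.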

Other observations

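The mean Sham Ct of miR-21 lay 0.00033 cycles from a multiple of 0.1. The same held within 0.0005 cycles for 6 of the 110 wells in Sham and for 0 in ACLT. The 6 included miR-214 (25.2003) and miR-30a (25.8003), which are also among the miRNAs most like miR-21.

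By mean Ct, miR-21 stood 11 places higher in ACLT than in Sham, the most that a miRNA in place 12 can gain. 14 other miRNAs gained more places, all from further down. They included miR-93 (place 61 in ACLT and 88 in Sham), miR-99a (63 and 89) and miR-148a (4 and 23).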
